A study of Rattus norvegicus with 9 samples.

Results

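The transcripts of 8 genes that write, erase or read DNA methylation, chosen by name, were compared in the rat frontal cortex: the writers Dnmt1, Dnmt3a and Dnmt3b, the erasers Tet1, Tet2 and Tet3, and the readers Mbd1 and Mbd2. All 8 were among the 37209 genes of the count table, and 7 of them were among the 16837 genes with enough reads to be tested. Tet1 was the exception. The samples were the frontal cortex of 9 male Wistar rats, labelled 14 weeks of age, with 3 rats in each group, and total RNA had been sequenced after removal of ribosomal RNA. Rats of the Control group (A1, A2 and A6) stayed with their mothers undisturbed until weaning. Control and separated rats came from different litters, so litter and separation cannot be told apart. Rats of the MS group (B3, B4 and B6) were parted from their mothers for 4 h each day from postnatal day (PND) 1 to 21. Rats of the MS+EA group (C3, C10 and C16) had the same separation and then electroacupuncture at the points Baihui and Yintang from PND 61 to 81, on alternate days under isoflurane. Control and MS rats received the anaesthesia alone, so all 9 animals share it. The sham group of the study was not sent for sequencing, and no group of Control rats with electroacupuncture is among the samples. Needling, current and handling therefore cannot be told apart.

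A methyl group on cytosine, mostly where it is followed by guanine (CpG), is placed by the DNMT enzymes. DNMT1 copies the existing pattern onto the new strand after replication, and DNMT3A and DNMT3B set new marks. TET enzymes oxidize methylcytosine to hydroxymethylcytosine, a form abundant in neurons, which opens a path to removal of the mark by base excision repair. Proteins with a methyl-CpG-binding domain, among them MBD1 and MBD2, attach to methylated DNA and bring in corepressor complexes such as NuRD. In the adult cortex these enzymes act largely in cells that no longer divide, and methylation has long been studied there as a possible carrier of early-life experience. Transcripts alone were counted in this series, and neither methylation nor protein was measured.

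Total counts lay between 16153292 and 19007907 in Control rats, between 16106381 and 17243320 in MS rats and between 12479905 and 14913736 in MS+EA rats, so every MS+EA library was smaller than every other library. Genes typed as lncRNA held 0.798% to 0.908% of the counts in Control rats, 0.852% to 0.964% in MS rats and 0.976% to 1.13% in MS+EA rats. The tissue label was met by its markers. The excitatory marker Slc17a7 had at least 16400 reads in each rat, and the proliferation marker Mki67 had at most 23. Of the 3 choroid plexus markers, Folr1 had at most 7 reads in any rat, Kl at most 25 and Ttr at most 146. Of 42 markers of 10 cell classes, 40 were tested, and 0 were called by edgeR in any of the 3 comparisons. At an unadjusted edgeR p under 0.05 there were 3 between MS and Control rats (Snap25, Cldn5 and Kl, all with higher values), where 10.6% of all tested genes passed. There were 6 between MS+EA and MS rats (Slc17a7, Cldn5 and Ttr with lower values, Mog, Drd1 and Top2a with higher), where 12.4% of all tested genes passed. Between MS+EA and Control rats, where 22.5% passed, there was 1, Slc17a7 with lower values, and its part in the values of other genes in that comparison was not tested. In bulk tissue, fewer cells of a type and less RNA per cell cannot be told apart.

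None of the 7 tested genes passed the test for differential expression in any comparison. The question put to each gene was whether its transcript level differed after maternal separation, after electroacupuncture in separated rats, or between treated separated rats and undisturbed rats. A gene was called at a Benjamini-Hochberg adjusted p under 0.05, over all genes tested with edgeR's quasi-likelihood F test, and a fold change above 1.5. By that rule 0 of 7 were called between MS and Control rats, where 0.0238% of all tested genes were. The count was 0 of 7 between MS+EA and MS rats (0.0178% of all tested genes) and 0 of 7 between MS+EA and Control rats (1.37% of all tested genes). DESeq2 and limma also called 0 of 7 in each comparison. At an unadjusted edgeR p under 0.05, the counts were 0, 0 and 2 of 7, with 10.6%, 12.4% and 22.5% of all tested genes as the background of the 3 comparisons. The pair past that limit was Dnmt1 and Dnmt3a, both with lower values in MS+EA than in Control rats, a direction in which 10.6% of all tested genes passed it. DESeq2 gave 1 gene (Tet3), 0 genes and 2 genes (Dnmt1 and Dnmt3a), with 1626, 1887 and 3565 of all 16837 genes, and limma gave 0, 0 and 2, with 1708, 2123 and 3766. Dnmt3a no longer passed that limit with total counts, with at least 10 counts in every rat or with the 6 rats compared alone, and Dnmt1 passed it under each of these. Tet3 passed it for MS against Control with DESeq2's size factors, total counts or every gene of at least 1 count.

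**Figure D1:**
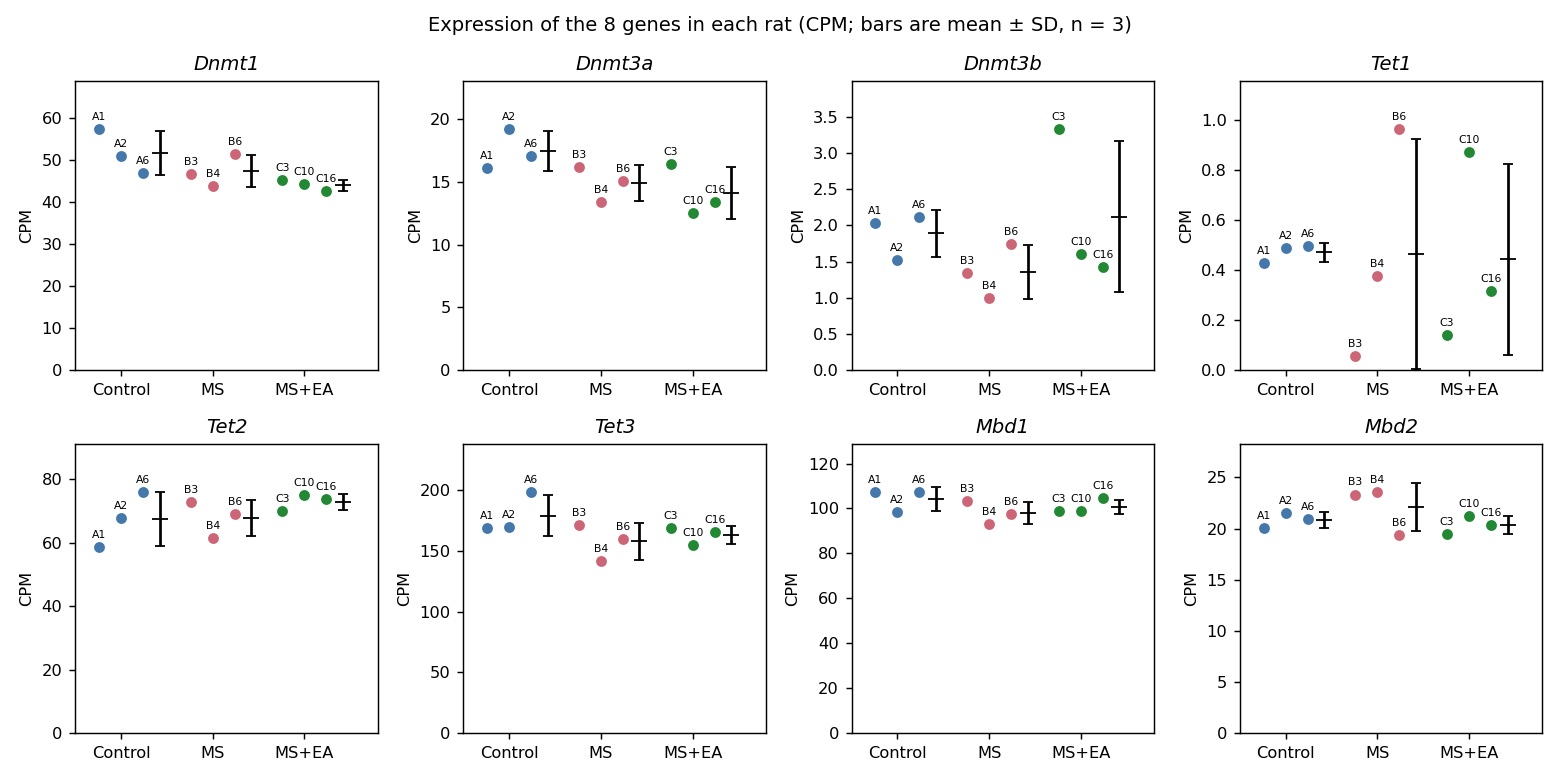
Expression of the 8 genes in CPM (normalized reads, vertical axis from 0) in each of the 9 rats, in the Control, MS and MS+EA groups; points are rats and black bars the mean ± SD of 3 rats. For Dnmt1 the 3 MS+EA rats, between 42.7 and 45.2 CPM, lie below the 3 Control rats, and for the other 7 genes the values of each pair of groups overlap.

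Dnmt1, the maintenance methyltransferase, had 57.4, 51.0 and 47.1 CPM in Control rats A1, A2 and A6. CPM stands for reads scaled to a common library size after edgeR's TMM normalization. In rats B3, B4 and B6 of the MS group it had 46.8, 43.9 and 51.6 CPM, and in rats C3, C10 and C16 of the MS+EA group it had 45.2, 44.3 and 42.7 CPM. The highest rat was the Control rat A1, the MS rats overlapped both other groups, and all 3 MS+EA rats lay below all 3 Control rats. Group means were 51.8 ± 5.23, 47.4 ± 3.88 and 44.1 ± 1.29 CPM (SD, n = 3 each) for Control, MS and MS+EA rats. The log2 fold change was -0.13 for MS against Control (standard error, SE, 0.0914, adjusted p = 0.655 by edgeR) and -0.11 for MS+EA against MS (SE 0.0924, adjusted p = 0.674 by edgeR). For MS+EA against Control it was -0.23 (SE 0.0922, adjusted p = 0.154 by edgeR), a change of -15.0% with a 95% interval from -26.0% to -2.36%. Dnmt1 did not pass the adjusted test in any of these comparisons. It was the only gene of the 7 whose MS+EA and Control rats did not overlap, and 25.9% of all tested genes were without overlap in that comparison. With Control rat A1 left out, the value for MS+EA against Control was -0.15 (adjusted p = 0.452 by edgeR). The MS+EA rats were also the rats with the smallest libraries and the largest lncRNA share, and the part of either in this difference was not tested.

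Dnmt3a, a de novo methyltransferase that stays expressed in mature neurons, had 16.1, 19.2 and 17.1 CPM in Control rats A1, A2 and A6. It had 16.2, 13.4 and 15.1 CPM in rats B3, B4 and B6 of the MS group, and 16.4, 12.5 and 13.4 CPM in rats C3, C10 and C16 of the MS+EA group. B3 and C3 lay within the Control range and the 4 other separated rats below it. The means were 17.5 ± 1.58, 14.9 ± 1.42 and 14.1 ± 2.05 CPM (SD, n = 3 each) for Control, MS and MS+EA rats. On the log2 scale the fold change was -0.23 for MS against Control (SE 0.133, adjusted p = 0.565 by edgeR) and -0.08 for MS+EA against MS (SE 0.135, adjusted p = 0.860 by edgeR). For MS+EA against Control it was -0.30 (SE 0.134, adjusted p = 0.203 by edgeR), with a 95% interval from -0.60 to -0.01. Leaving out C3 moved that value to -0.42 (edgeR adjusted p = 0.0973), and leaving out C10 moved it to -0.22 (edgeR adjusted p = 0.433). The difference between MS+EA and MS rats changed sign without C10, to 0.0052 on the log2 scale. Control rats enter 2 of the 3 comparisons and so do MS and MS+EA rats, so the 3 values of a gene are not independent.

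Dnmt3b, the other de novo enzyme, was counted far less often, with 16 to 48 reads per rat. Its reads were 38, 25 and 34 in Control rats, 23, 16 and 29 in MS rats, and 48, 24 and 18 in MS+EA rats, in the order given above. The 48 reads of C3 made the MS+EA mean of 2.12 ± 1.05 CPM (SD, n = 3) the highest of the groups, against 1.89 ± 0.320 CPM in Control and 1.36 ± 0.372 CPM in MS rats. The 3 groups overlapped. Fitted over all 9 rats, its log2 fold change was -0.47 for MS against Control (SE 0.373, adjusted p = 0.692 by edgeR) and 0.64 for MS+EA against MS (SE 0.375, adjusted p = 0.506 by edgeR). Without C3 the latter was 0.16, and the value for MS+EA against Control went from 0.17 (SE 0.365, adjusted p = 0.831 by edgeR) to -0.31. The 95% intervals of Dnmt3b were the widest of the 7 genes and reached from -58.8% to 26.4% for MS against Control, so these 9 rats do not settle whether Dnmt3b differed by 1.5-fold.

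The start regions of the writers are shown because CpG is the dinucleotide these enzymes act on. Each is the window from 250 bases before to 50 bases after a transcription start in RefSeq (rat build GRCr8), written 5′ to 3′ on the gene's strand with every CpG in capitals. The table of windows was matched by symbol and held 7 of the 8 genes, all but Dnmt3b. The Dnmt1 window, chr8:27762792-27763091 on the minus strand, holds 17 CpG, and the Dnmt3a window, chr6:32598352-32598651 on the plus strand, holds 21.
Dnmt1: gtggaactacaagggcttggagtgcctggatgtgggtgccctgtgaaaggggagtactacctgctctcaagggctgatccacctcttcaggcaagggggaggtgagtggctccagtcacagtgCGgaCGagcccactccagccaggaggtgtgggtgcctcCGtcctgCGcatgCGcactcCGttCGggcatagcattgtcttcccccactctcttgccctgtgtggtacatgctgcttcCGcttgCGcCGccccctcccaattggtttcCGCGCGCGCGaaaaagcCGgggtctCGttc
Dnmt3a: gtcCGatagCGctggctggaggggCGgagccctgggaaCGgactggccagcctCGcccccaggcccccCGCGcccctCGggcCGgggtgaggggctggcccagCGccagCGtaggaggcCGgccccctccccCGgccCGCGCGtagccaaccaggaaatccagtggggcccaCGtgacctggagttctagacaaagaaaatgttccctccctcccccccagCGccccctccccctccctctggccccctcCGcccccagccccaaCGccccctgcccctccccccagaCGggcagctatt
Over the 33469 windows of the table the median was 7 CpG and the upper quartile 19, and 29.0% and 22.6% of all windows held at least as many as those of Dnmt1 and Dnmt3a. These counts describe the sequence and not its methylation in these rats.

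Among the erasers, Tet3 and Tet2 were read in every rat at a depth of over 900 reads, and Tet1 was at the limit of detection. Tet3, a dioxygenase known to be expressed in neurons, had 169, 170 and 199 CPM in Control rats A1, A2 and A6. It had 172, 142 and 160 CPM in rats B3, B4 and B6 of the MS group, and 169, 155 and 166 CPM in rats C3, C10 and C16 of the MS+EA group. The lowest rat was B4 and the highest A6, and the groups overlapped. The means were 179 ± 17.0, 158 ± 14.9 and 163 ± 7.54 CPM (SD, n = 3 each) for Control, MS and MS+EA rats. For MS against Control the log2 fold change was -0.18 (SE 0.0857, adjusted p = 0.477 by edgeR), the lowest adjusted p of the 7 genes in that comparison. It was 0.05 for MS+EA against MS (SE 0.0860, adjusted p = 0.859 by edgeR) and -0.13 for MS+EA against Control (SE 0.0858, adjusted p = 0.387 by edgeR). Leaving out a single rat kept the first of these between -0.25 and -0.10, and without B4 the second was -0.015.

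Tet2, which lacks the DNA-binding CXXC domain of the other TET enzymes, had 58.8, 67.7 and 76.0 CPM in Control rats. It had 73.0, 61.5 and 69.0 CPM in MS rats and 69.9, 74.9 and 73.8 CPM in MS+EA rats. The Control rats held both the lowest and the highest value of all 9. The means were 67.5 ± 8.64, 67.8 ± 5.80 and 72.9 ± 2.61 CPM (SD, n = 3 each) for Control, MS and MS+EA rats. The log2 fold change was 0.01 for MS against Control (SE 0.0963, adjusted p = 0.987 by edgeR), with a 95% interval from -0.20 to 0.22, and its sign turned when libraries were scaled by total counts (-0.0076) or without A1 (-0.084). It was 0.10 for MS+EA against MS (SE 0.0966, adjusted p = 0.699 by edgeR) and 0.11 for MS+EA against Control (SE 0.0966, adjusted p = 0.536 by edgeR).

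Tet1 had 8 reads in each Control rat, 1, 6 and 16 reads in rats B3, B4 and B6 of the MS group, and 2, 13 and 4 reads in rats C3, C10 and C16 of the MS+EA group. B3 and C3 were at or under 3 counts, taken here as the floor of detection. The Control rats were alike, and the separated rats with and without treatment spread on both sides of them. The means were 0.471 ± 0.0375, 0.465 ± 0.459 and 0.443 ± 0.382 CPM (SD, n = 3 each) for Control, MS and MS+EA rats. When all 25954 genes with at least 1 count were fitted, the log2 fold changes of Tet1 were -0.03, -0.04 and -0.07 in the 3 comparisons, with standard errors between 0.696 and 0.718. With errors of that size, a change of 1.5-fold in Tet1 could not be told from none.

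The Tet2 window is shown because it holds the most CpG among the windows of the TET genes, 39 in chr2:224746137-224746436 (GRCr8, minus strand).
Tet2: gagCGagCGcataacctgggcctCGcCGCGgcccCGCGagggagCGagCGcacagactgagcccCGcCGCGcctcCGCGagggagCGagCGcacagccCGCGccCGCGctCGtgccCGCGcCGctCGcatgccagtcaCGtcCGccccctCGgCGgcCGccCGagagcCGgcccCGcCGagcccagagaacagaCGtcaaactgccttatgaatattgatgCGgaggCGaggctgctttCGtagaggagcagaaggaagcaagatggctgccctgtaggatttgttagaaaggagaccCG
Of all windows, 3.76% held at least as many CpG. RefSeq lists 4 windows for Tet3, with 3 to 23 CpG, and 3 windows for Tet1, with 3 to 16 CpG. The windows of Mbd1 and Mbd2 hold 25 and 39 CpG. Thus 5 of the 7 genes have each of their windows above the median of 7 CpG, and Tet1 and Tet3 have windows on both sides of it.

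Mbd1, a reader that joins methylated CpG to repressive histone methylation, was the steadiest of the 8 genes. It had 107, 98.2 and 107 CPM in Control rats A1, A2 and A6, 103, 93.3 and 97.6 CPM in rats B3, B4 and B6 of the MS group, and 98.8, 99.0 and 104 CPM in rats C3, C10 and C16 of the MS+EA group. The highest rat was 1.15 times the lowest. Within groups its SD was 0.0654 on the log2 scale, and 6.21% of the tested genes had a smaller one. The means were 104 ± 5.24, 98.0 ± 4.99 and 101 ± 3.20 CPM (SD, n = 3 each) for Control, MS and MS+EA rats. The log2 fold changes were -0.09 for MS against Control (SE 0.0675, adjusted p = 0.679 by edgeR), 0.04 for MS+EA against MS (SE 0.0679, adjusted p = 0.855 by edgeR) and -0.05 for MS+EA against Control (SE 0.0677, adjusted p = 0.713 by edgeR). The 95% intervals of Mbd1 over the 3 comparisons reached at most from -15.1% to 13.8%.

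Mbd2, the methyl-CpG-binding subunit of a form of the NuRD complex, had 20.02, 21.5 and 21.0 CPM in Control rats. It had 23.3, 23.6 and 19.4 CPM in MS rats and 19.5, 21.2 and 20.3 CPM in MS+EA rats. B3 and B4 were above all other rats, and B6 was the lowest of the 9. The means were 20.8 ± 0.761, 22.1 ± 2.37 and 20.4 ± 0.874 CPM (SD, n = 3 each) for Control, MS and MS+EA rats. On the log2 scale the fold change was 0.08 for MS against Control (SE 0.105, adjusted p = 0.820 by edgeR), and without B6 it was 0.17. It was -0.12 for MS+EA against MS (SE 0.106, adjusted p = 0.687 by edgeR) and -0.03 for MS+EA against Control (SE 0.106, adjusted p = 0.893 by edgeR).

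**Figure D2:**
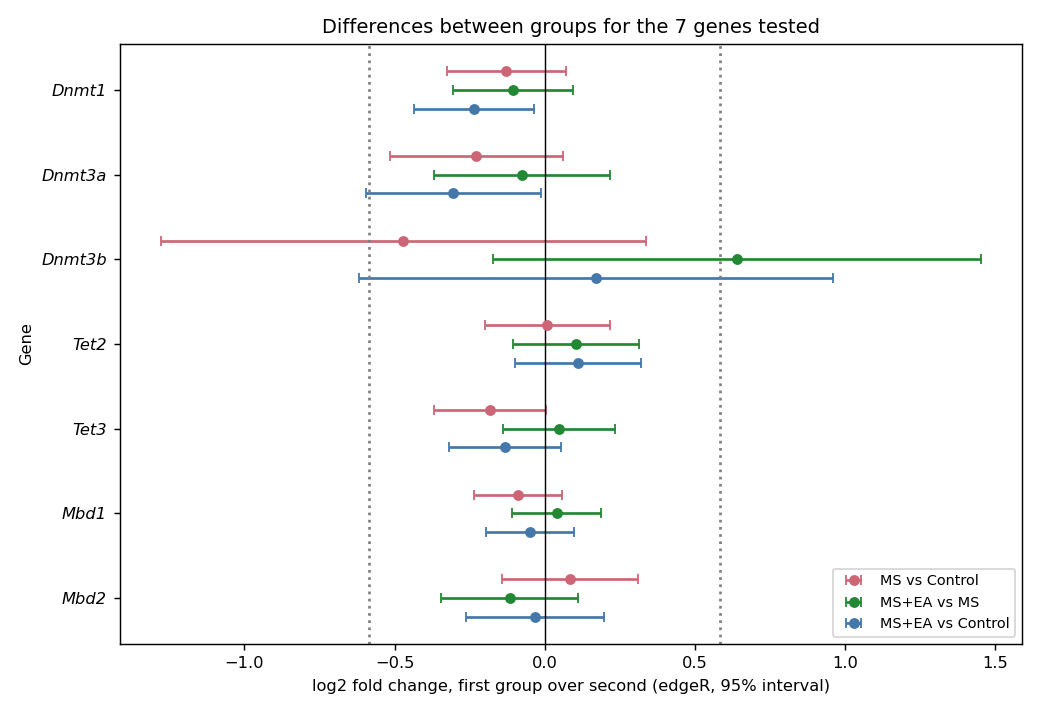
Log2 fold change (horizontal axis, first group over second) of the 7 tested genes (vertical axis) in the 3 comparisons, from edgeR; bars are 95% intervals and dotted lines mark a 1.5-fold change. All but Dnmt3b and, for MS+EA against Control, Dnmt3a have intervals inside the dotted lines, and the intervals that leave out 0 are those of Dnmt1 and Dnmt3a for MS+EA against Control.

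Set side by side, the fitted differences of the 7 genes lay between -0.47 and 0.64 on the log2 scale, and both ends were those of Dnmt3b. Their median log2 fold change was -0.13 for MS against Control, with 5 of 7 lower, against a median of -0.0014 over all tested genes, of which 50.3% were lower. The medians of the 7 were 0.04 for MS+EA against MS (3 of 7 lower, all genes 0.00059 with 49.9% lower) and -0.05 for MS+EA against Control (5 of 7 lower, all genes 0.0055 with 49.1% lower). The 95% intervals show which sizes of change the 9 rats leave room for. They lay within a 1.5-fold change in either direction for 6 of 7 genes for MS against Control, as for 60.3% of all tested genes. The count was again 6 of 7 for MS+EA against MS (59.4% of all tested genes) and 5 of 7 for MS+EA against Control (55.6% of all tested genes). Levels were not compared between genes, since the lengths of the counted transcripts are not given in the sources used here.

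The other genes of the pathway, from 5 lists of 70 genes, were counted in the same way. Of the 65 that were tested, 0 were called in any comparison by edgeR's adjusted p and fold change, against 0.0238%, 0.0178% and 1.37% of all tested genes, so that count says nothing particular about these genes. At an unadjusted edgeR p under 0.05 there were 5 between MS and Control rats (7.69%, against 10.6% of all tested genes), 9 between MS+EA and MS rats (13.8%, against 12.4%) and 11 between MS+EA and Control rats (16.9%, against 22.5%). An adjusted p under 0.05, without a fold threshold, was reached by 3 of the 65 for MS+EA against Control, Cbs, Cdk2ap1 and Idh3a, and by 5.40% of all tested genes in that comparison. No gene of the lists reached it in the other comparisons.

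**Figure D3:**
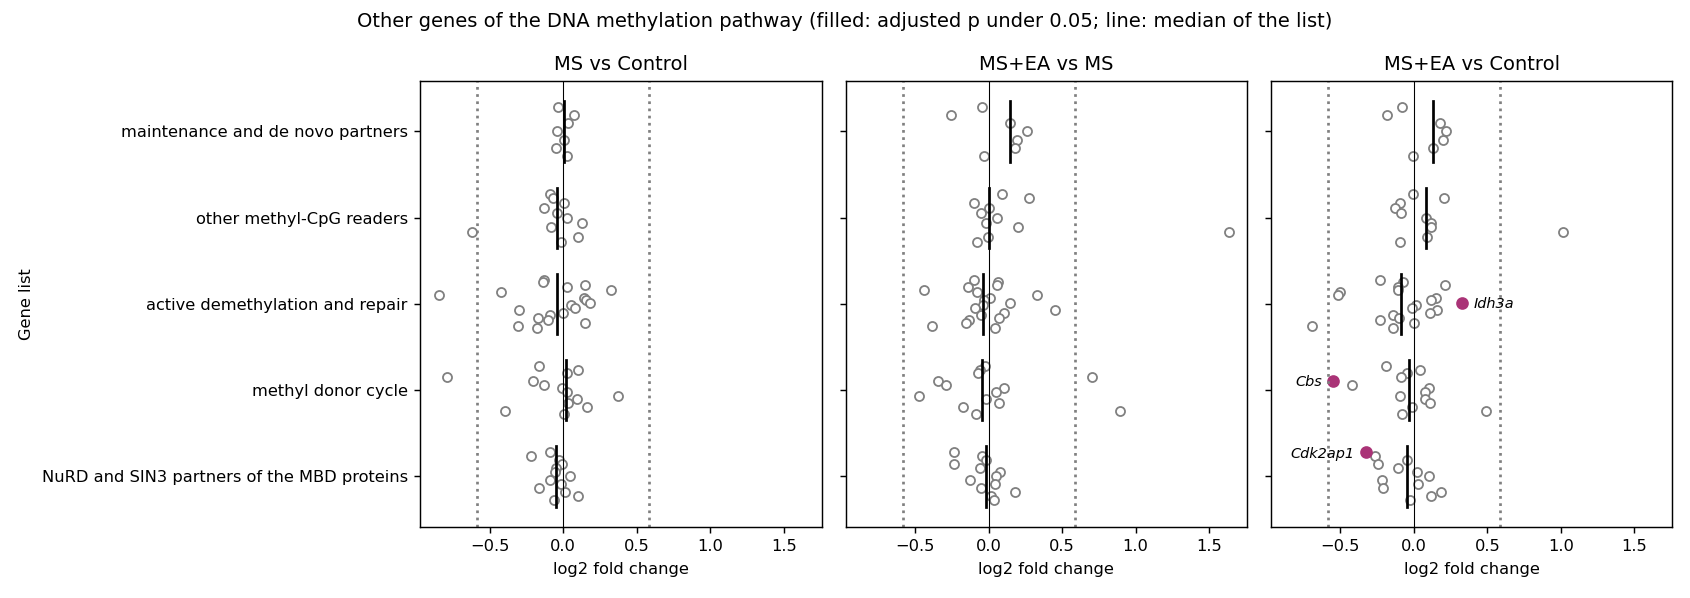
Log2 fold change (horizontal axis, first group over second) of the 65 tested genes of the 5 pathway lists (rows) in the 3 comparisons; each circle is a gene, the black line the median of its list and the dotted lines a 1.5-fold change. The 3 filled circles, Idh3a, Cbs and Cdk2ap1, are the genes with an adjusted p under 0.05, and the circle furthest right in both comparisons with MS+EA rats is Zbtb33.

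Among the partners of the writers, 7 of 9 genes were tested, and Dnmt3l, the inactive cofactor of the de novo enzymes, had 0 reads in all 9 rats. Uhrf1, which brings DNMT1 to hemimethylated DNA, had 79 to 121 reads per rat and a log2 fold change of 0.01 for MS against Control (SE 0.200, adjusted p = 0.995 by edgeR). Its relative Uhrf2 was the gene of this list past an unadjusted edgeR p of 0.05. Uhrf2 had 71.2 CPM in Control, 68.7 CPM in MS and 77.9 CPM in MS+EA rats (log2 fold change for MS+EA against MS 0.18, SE 0.0797, edgeR adjusted p = 0.381).

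Of the 12 genes listed as other readers and their relatives, 11 were tested. In both comparisons with MS+EA rats the largest fitted difference of the list was that of Zbtb33. This gene encodes Kaiso, a zinc finger protein that can bind methylated DNA. It had 11, 11 and 13 reads in Control rats, 6, 10 and 6 in MS rats and 16, 20 and 22 in MS+EA rats, so the MS+EA rats were above all others. Without overlap were 17.9% of all tested genes for MS+EA against MS and 25.9% for MS+EA against Control. Fitted over all 9 rats, its log2 fold change was 1.64 for MS+EA against MS (SE 0.408, adjusted p = 0.207 by edgeR) and 1.01 for MS+EA against Control (SE 0.386, adjusted p = 0.141 by edgeR), and neither passed. Baz2b, a bromodomain gene of the same list, had 93.6 CPM in Control, 89.2 CPM in MS and 108 CPM in MS+EA rats (log2 fold change for MS+EA against MS 0.27, SE 0.0762, edgeR adjusted p = 0.236). Setdb1, a histone methyltransferase gene, had 52.7 CPM in Control, 49.7 CPM in MS and 57.2 CPM in MS+EA rats (log2 fold change for MS+EA against MS 0.20, SE 0.0837, edgeR adjusted p = 0.352).

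In the list of active demethylation and repair, 20 of 21 genes were tested. Idh3a, a subunit of the mitochondrial isocitrate dehydrogenase that makes the TET cosubstrate ketoglutarate, had 190, 199 and 197 CPM in Control rats A1, A2 and A6. It had 205, 221 and 239 CPM in rats B3, B4 and B6 of the MS group, and 215, 259 and 262 CPM in rats C3, C10 and C16 of the MS+EA group. Every separated rat was above every Control rat, and 17.6% of all tested genes were without overlap for MS against Control and 25.9% for MS+EA against Control. The log2 fold change of Idh3a for MS+EA against Control was 0.33 (SE 0.0839, adjusted p = 0.0415 by edgeR). Leaving out A1, A2, A6, C10 or C16 in turn raised that adjusted p to between 0.0740 and 0.160, and a fit of the 6 rats compared gave 0.0509. DESeq2 gave Idh3a an adjusted p of 0.0072. Gadd45g, of a family linked to DNA demethylation and stress signalling, had 107 to 126 reads in Control rats and 54 to 66 in MS rats, which did not overlap in CPM, and 17.6% of all tested genes were without overlap there. Its log2 fold change was -0.85 (SE 0.252, adjusted p = 0.224 by edgeR), and the MS+EA rats, with 43 to 91 reads, overlapped both groups. Cxxc5, which encodes a CpG-binding zinc finger protein, had 128 CPM in Control, 131 CPM in MS and 119 CPM in MS+EA rats (log2 fold change for MS+EA against MS -0.14, SE 0.0584, edgeR adjusted p = 0.364). Apex1, the endonuclease of base excision repair, had 37.6 CPM in Control, 34.4 CPM in MS and 32.1 CPM in MS+EA rats (log2 fold change for MS+EA against Control -0.23, SE 0.103, edgeR adjusted p = 0.208). Tdg, the glycosylase that cuts out oxidized methylcytosine, had a log2 fold change of 0.15 for MS against Control (SE 0.118, adjusted p = 0.689 by edgeR).

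The methyl donor cycle supplies S-adenosylmethionine to the DNMT enzymes, and 14 of its 15 listed genes were tested. Cbs, which draws homocysteine out of the cycle, had 81.1, 65.1 and 86.0 CPM in Control rats, 69.1, 67.1 and 65.1 CPM in MS rats and 65.7, 45.7 and 46.9 CPM in MS+EA rats. C10 and C16 were the lowest rats, and C3 lay among the MS rats. For MS+EA against Control its log2 fold change was -0.55 (SE 0.134, adjusted p = 0.0363 by edgeR). Leaving out A1, A6, B6, C10 or C16 in turn raised that adjusted p to between 0.0514 and 0.139, scaling by total counts gave 0.0512 and a fit of the 6 rats compared gave 0.0547. Without C3 the log2 fold change of Cbs was -0.74 (adjusted p = 0.0083 by edgeR), which passes both thresholds of a call, and DESeq2 gave an adjusted p of 0.0021. Shmt1, a folate-cycle enzyme, had few reads, 19 to 31 in MS and 27 to 46 in MS+EA rats. Its means were 1.88 CPM in Control, 1.43 CPM in MS and 2.64 CPM in MS+EA rats (log2 fold change for MS+EA against MS 0.89, SE 0.293, edgeR adjusted p = 0.275). Bhmt, which remethylates homocysteine, had 5.33 CPM in Control and 3.07 CPM in MS rats (log2 fold change -0.79, SE 0.325, edgeR adjusted p = 0.409). These 2 groups overlapped, with the highest value in A2 (7.87 CPM) and the lowest in B4 (1.75 CPM). The MS+EA rats had a mean of 5.01 CPM of Bhmt (log2 fold change against MS 0.70, SE 0.330, edgeR adjusted p = 0.406). Gamt, which uses S-adenosylmethionine to make creatine, had 10.5 CPM in Control, 9.55 CPM in MS and 7.79 CPM in MS+EA rats (log2 fold change for MS+EA against Control -0.42, SE 0.150, edgeR adjusted p = 0.117). None of these 3 passed. For Mat2a, which makes S-adenosylmethionine, the log2 fold change was -0.0074 for MS against Control (SE 0.0864, adjusted p = 0.987 by edgeR) and 0.11 for MS+EA against MS (SE 0.0867, adjusted p = 0.643 by edgeR).

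All 13 listed NuRD and SIN3 genes, the corepressor partners of the MBD proteins, were tested. The 95% interval of each lay within a 1.5-fold change in all 3 comparisons, as for 60.3%, 59.4% and 55.6% of all tested genes. For MS+EA against Control, 5 of the 13 had an unadjusted edgeR p under 0.05, all with lower values, the most of the 5 lists. Of all tested genes 22.5% passed that limit, and 10.6% passed it with lower values. Past it were 0 of 7 partners of the writers and 2 of 11 readers, with higher values. In demethylation and repair there were 1 lower and 1 higher of 20, and in the methyl donor cycle 2 of 14, with lower values. Cdk2ap1, a small subunit of NuRD, had 116, 97.1 and 94.6 CPM in Control rats, 92.5, 99.3 and 96.5 CPM in MS rats and 79.5, 87.2 and 78.1 CPM in MS+EA rats. The MS+EA rats were below all 6 others, where 17.9% of all tested genes were without overlap for MS+EA against MS and 25.9% for MS+EA against Control. Its log2 fold change for MS+EA against Control was -0.33 (SE 0.0840, adjusted p = 0.0423 by edgeR), and leaving out any 1 of the 9 rats raised the adjusted p to between 0.0512 and 0.175, as did a fit of the 6 rats compared (0.0689), whereas DESeq2 gave an adjusted p of 0.0101. Chd3, a NuRD remodelling ATPase, had a mean of 966 CPM in Control, 829 CPM in MS and 804 CPM in MS+EA rats, and its log2 fold change for MS+EA against Control was -0.26 (SE 0.0764, adjusted p = 0.0624 by edgeR). The NuRD subunit genes Mta1 and Mta3 had log2 fold changes of -0.21 each in that comparison (edgeR adjusted p = 0.0786 and 0.0712). For MS against Control, Chd3, Mta1 and Mta3 had -0.22, -0.09 and -0.16 (edgeR adjusted p = 0.301, 0.673 and 0.375). For MS+EA against MS they had -0.04, -0.13 and -0.05 (edgeR adjusted p = 0.855, 0.453 and 0.796).

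**Figure D4:**
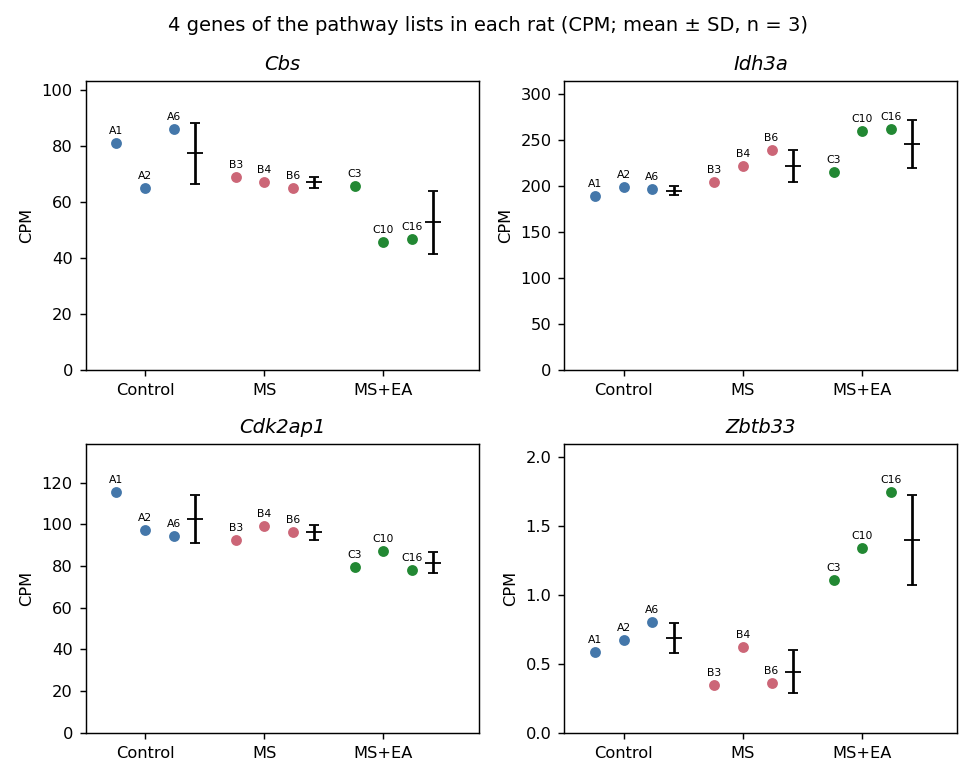
Expression of Cbs, Idh3a, Cdk2ap1 and Zbtb33 in CPM (vertical axes from 0) in each of the 9 rats, by group; points are rats and black bars the mean ± SD of 3 rats. For Cdk2ap1 the MS+EA rats lie below all other rats, for Zbtb33 above all other rats, and for Cbs the MS+EA rat C3 lies with the MS rats.

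The genes nearest in pattern to each member were found by the root-mean-square difference of log2 CPM over the 9 rats, each gene centred on its own mean, among the 16836 other tested genes. For Dnmt1 they were Ergic3 (difference 0.0490 on the log2 scale) and Ppp2r5d, a regulatory subunit of protein phosphatase PP2A (0.0545). For Dnmt3a they were the histone acetyltransferase gene Kat8 (0.0612) and Fam71e1 (0.0670), and for Dnmt3b Snai3 (0.180) and Hs3st5 (0.191). Tet2 was nearest to Ints6, a subunit of the Integrator complex (0.0352), and to Jmjd1c, of a histone demethylase family (0.0484). Tet3 was nearest to Mrpl15 (0.0578) and Usp35 (0.0587), Mbd1 to Phrf1 (0.0237) and Gtf3c2 (0.0308), and Mbd2 to Lysmd2 (0.0521) and Alg9 (0.0531). No member was among the nearest genes of another. These neighbours are given as a description, with no test.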

How the data were processed

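The authors used HISAT2 (2.0.4 per the submitters' processing notes) against the rat build Rnor_6.0 after quality filtering with FastQC and deposited whole-number counts per gene without normalization. The counting program, its strand setting and the treatment of reads with several locations are not given in the sources used here, so a gene and an antisense partner cannot be told apart. Groups came from the sample labels. Members and gene lists were chosen with earlier results of these data known. In the present work, counts were normalized by TMM, filtered with filterByExpr (minimum count 10) and fitted with edgeR 4.0.16 in R 4.3.3 as a mean per group over all 9 rats, with quasi-likelihood F tests and Benjamini-Hochberg adjustment over 16837 genes. The study used EBSeq, and its thresholds were kept. Each standard error was taken as the absolute log2 fold change over the root of its F statistic, and 95% intervals use the t quantile of the fit's degrees of freedom. The biological coefficient of variation was 12.7%. Named genes are the 8 members, up to 4 genes per pathway list with the smallest p under 0.05 unadjusted, and the 2 nearest in pattern. Dnmt3l, Uhrf1, Tdg and Mat2a were named outside that rule, after their values were seen. Alternatives used DESeq2 1.42.0, limma 3.58.1, other scalings, filters and sets of rats. The procedures were tested on simulated data, with planted changes larger than any fitted for the members and only in genes with more reads than Dnmt3b. That does not show whether changes of the size fitted for the members would be found. Promoter windows came from RefSeq (GRCr8) and no coordinate was converted. Labels do not say whether rats of a group share a litter. Each edgeR p-value sets a group difference against the spread within groups, estimated over all 9 rats and drawn toward that of other genes. It does not allow for shared litters, and would be too small if littermates are alike. With 3 against 3, an exact permutation test cannot go below p = 0.1. Figures were drawn with matplotlib 3.10.9 in Python 3.11.15.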

Additional observations from a re-analysis of the deposited data

How the results depend on the processing

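No member was called under any alternative, in any comparison. The lowest adjusted p of a member was 0.0973, for Dnmt3a in MS+EA relative to Control rats without C3. Of the 168 refitted member values under other scalings, filters, tests and sets of rats, 167 kept their direction. The exception was Tet2 in MS relative to Control rats, at -0.0076 with total counts. These refits reuse the same counts of the rats compared, so a kept direction was largely fixed in advance. The log2 fold change of Dnmt1 in MS relative to Control rats, for example, was -0.128. It was -0.134 with DESeq2 and -0.127 with only the 6 rats compared. The count of 167 therefore does not show that directions are stable. Of the 189 refitted member values with a rat left out, 182 kept their direction. The 5 member values that crossed 0 were those of Tet2 in MS relative to Control rats (-0.084 to 0.10), Dnmt3a and Tet3 in MS+EA relative to MS rats (-0.19 to 0.0052 and -0.015 to 0.11), and Dnmt3b and Mbd2 in MS+EA relative to Control rats (-0.31 to 0.38 and -0.065 to 0.0039).

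The number of genes called over the whole table depended on more. Between MS and Control rats it was 4, and 207 with every gene of at least 1 count, 70 with DESeq2, 11 with only the 6 rats compared, and 2 to 22 with a rat left out (22 without B3). Between MS+EA and MS rats it was 3, and 72, 37 and 1 in the same order, 0 with at least 10 counts in every rat (1951 genes at an unadjusted edgeR p under 0.05), 1 with bias-adjusted deviances and 1 to 4 with a rat left out. Between MS+EA and Control rats it was 230, and 469 with every gene of at least 1 count, 910 without a fold threshold and 71 to 304 with a rat left out (71 without A1, 121 without C10). The cause of these shifts was not tested. No paired analysis was possible because each animal belongs to a single group and the labels link no animal to one in another group. Tet1 and Dnmt3b had the fewest reads of the members and also spread widely between rats of a group, and the parts of depth and spread in their wide errors were not tested.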

Other observations

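The balance of reads between Tet2 and Tet3 does not depend on library scaling, and it was looked at after the values had been seen. Tet2 held 25.8%, 28.5% and 27.7% of the reads on the pair in the Control rats A1, A2 and A6. It held 29.8%, 30.2% and 30.2% in rats B3, B4 and B6 of the MS group, and 29.3%, 32.6% and 30.8% in rats C3, C10 and C16 of the MS+EA group. All 6 separated rats were above the 3 Control rats, and no test was made of this difference. Of all tested genes, taken singly by CPM, 17.6% were without overlap for MS against Control and 25.9% for MS+EA against Control. Those shares are of single genes, and no background was counted for pairs of genes. The 95% Wilson intervals cover counting error only. That of A2 (27.1% to 30.0%) overlapped those of B3, B4, B6, C3 (27.8% to 30.8%) and C16. That of A6 (26.4% to 29.0%) overlapped those of B3, B4, B6 and C3, and that of A1 (24.5% to 27.2%) overlapped that of no separated rat. Reads are not corrected for the lengths of the transcripts. The share of Dnmt1 in the reads on Dnmt1 and Dnmt3a was 74.7% ± 2.97, 76.1% ± 1.61 and 75.8% ± 2.32 (SD, n = 3 each) in Control, MS and MS+EA rats, and that of Mbd2 in the reads on Mbd1 and Mbd2 was 16.7% ± 1.17, 18.4% ± 1.82 and 16.8% ± 0.737. For both pairs the 3 groups overlapped.

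Of the marker lists, the summed endothelial markers Cldn5, Pecam1, Flt1 and Cdh5 were between 83.9 and 100.1 CPM in Control rats, between 105 and 116 CPM in MS rats and between 86.1 and 109 CPM in MS+EA rats. The summed neuronal markers were between 5696 and 5806 CPM in Control rats, between 5861 and 6400 CPM in MS rats and between 4913 and 6178 CPM in MS+EA rats. Both sums were without overlap between MS and Control rats, a comparison in which 17.6% of all tested genes, taken singly, were without overlap. A sum is governed by its most abundant genes, so the share of single genes is not its background. Of the 6 neuronal markers Snap25 alone, and of the 4 endothelial markers Cldn5 alone, had an unadjusted edgeR p under 0.05 there. The summed striatal markers were without overlap between MS rats (21.5 to 24.1 CPM) and MS+EA rats (26.9 to 31.2 CPM), where 17.9% of all tested genes, taken singly, were. Of the 4 striatal markers Drd1 alone had an unadjusted edgeR p under 0.05 there. The striatal sums lay between 22.7 and 32.2 CPM in Control rats. The summed oligodendrocyte markers spread widely within groups, from 1675 to 3906 CPM over all rats. The choroid plexus markers reached 10.9 CPM in an MS rat and at most 2.81 CPM in any Control rat. The part of these in the values of the methylation genes was not tested.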
